A study of Homo sapiens with 12 samples.

Results

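NFE2L2, KEAP1, HMOX1, NQO1, GCLC, GCLM, TXNRD1, SRXN1 and TXN are 9 genes of the NRF2 antioxidant pathway. They were taken by name, and each matched 1 of the 24331 features in the deposited expression table. All 9 were among the 11256 features with a mean level of at least 1 FPKM (fragments scaled by transcript length and by the mapped fragments of the library) that were tested. RNA-sequencing was performed on MDA-MB-231 cells, a human triple-negative breast cancer line, as WT cells and as KO (CRE deleted) cells. In the KO cells a stretch of the ETS1 promoter with NFAT and NF-κB sites had been removed by CRISPR/Cas9. Both kinds of cells were taken at 0, 6 and 24 h of PMA/Ionomycin, where PMA is a phorbol ester that activates protein kinase C and Ionomycin is a calcium ionophore. There were 2 biological replicates in each of the 6 groups and 12 libraries. How many clones the KO libraries came from is not given in the sources used here, so a difference between KO and WT cells and a difference between clones cannot be told apart.

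NRF2, the product of NFE2L2, is a transcription factor of the oxidative stress response. KEAP1 holds it for ubiquitination and degradation in unstressed cells. When reactive compounds modify KEAP1, NRF2 accumulates, pairs with small MAF proteins and binds antioxidant response elements near its targets. Much of this control acts on the NRF2 protein, which RNA-sequencing does not measure. Among the targets, HMOX1 degrades heme, NQO1 reduces quinones, GCLC and GCLM form the enzyme of the first step of glutathione synthesis, TXNRD1 and TXN are thioredoxin reductase and thioredoxin, and SRXN1 repairs overoxidized peroxiredoxins. Several of them, HMOX1 among them, also respond to AP-1, a factor that PMA activates.

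The targeted gene ETS1 was lower in the KO cells at each time. WT libraries held 24.0 and 23.7 FPKM at 0 h, 139 and 145 FPKM at 6 h, and 36.2 and 39.7 FPKM at 24 h. The KO libraries held 16.5 FPKM at 0 h (replicate 2), 62.8 and 62.2 FPKM at 6 h, and 29.3 and 30.7 FPKM at 24 h. The library labelled KO 0 h replicate 1, with 5.08 FPKM of ETS1, stood apart from the rest. Its highest Pearson's r with another library across the tested features was 0.890, against 0.978 to 0.984 between the replicates of the other groups, and its FPKM summed to 1423335 against 566255 to 651080. It held 1139 FPKM of EPCAM and 52.3 FPKM of CDH1, epithelial genes that were at 3.38 FPKM or less and at 0.0318 FPKM or less in the other 11 libraries. In it 9 of 10 markers of intestinal epithelium reached 1 FPKM, with a sum of 3016 FPKM against 1.497 to 2.88 FPKM in the others. It was kept out of every test below, which leaves 1 library at KO 0 h, assumed to vary like the other groups. In the 11 libraries the mesenchymal markers VIM, CD44, CAV1, AXL and SPARC each reached 1 FPKM, and ESR1 and PGR were at or near 0. ERBB2 (9.68 to 15.4 FPKM) and KRT19 (32.5 to 106.5 FPKM), which are low in this line by its usual description, were not absent.

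The letters of the antioxidant response element were searched on both strands in the 10000 bases before the annotated start of 19833 genes (GRCh37, the build of hg19, with its GENCODE annotation). The core TGACNNNGC occurred in 96.75% of these windows and TGACTCA, the AP-1 site, in 78.46%, so their presence sets few genes apart. The longer TGACTCAGC, which contains the AP-1 letters and also matches the core, occurred in 12.87% of the windows and in those of HMOX1, NQO1 and GCLC among the 9 genes. HMOX1 had 4 copies, and its window was the only 1 of the 19833 with as many (0.005%). Its first 3 copies lie in a cluster of 4 matches to the core, each 29 bases from the next, and the core that lacks the AP-1 letters is the second of them. The matches are shown for their positions, which differ widely. Of their genes, HMOX1 rose with stimulation below, and NQO1 and GCLC were lower by 24 h. TXNRD1, SRXN1 and GCLM were called there too and had no TGACTCAGC in this window. Each match is written on the strand of its gene with 10 bases on either side. Capitals mark the match, and the coordinates are those of the capitals. Matches describe the sequence and show no binding.

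HMOX1 at chr22:35768012-35768020, first base at -9077 from the start: tgtttttcctGCTGAGTCAcggtcccgag
HMOX1 at chr22:35768041-35768049, first base at -9048: gtctattttcGCTAAGTCAccgccccgag
HMOX1 at chr22:35768070-35768078, first base at -9019: atctgttttcGCTGAGTCAcggtcccggt
HMOX1 at chr22:35768099-35768107, first base at -8990: gtctgttttcGCTGAGTCAcggtctagag
HMOX1 at chr22:35773149-35773157, first base at -3940: gctagattttGCTGAGTCAccagtgcctc
NQO1 at chr16:69760910-69760918, first base at -455: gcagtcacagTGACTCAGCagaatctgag
GCLC at chr6:53413047-53413055, first base at -3156: cgcacaaagcGCTGAGTCAcggggaggcg

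The 4 clustered HMOX1 matches overlap no annotated gene, and the match at -3940 lies in an exon of the unnamed gene ENSG00000282041. The NQO1 match lies in an exon of NQO1-DT, a divergent transcript. The GCLC match lies between exons, inside the longest annotated extent of GCLC. Within 1000 bases of the start, TGACTCAGC occurred in 1.3% of the windows and, of the 9 genes, in that of NQO1. In that window 5 of the 9 genes, GCLC, GCLM, NQO1, TXN and TXNRD1, carried the core, against 32.5% of all windows of that length, and TXN was called in no comparison below. NQO1 and SRXN1 carried the AP-1 letters there, against 12.13%. The matches of TXNRD1 and SRXN1 are shown as examples of the core without the AP-1 letters and of the AP-1 letters without the core as searched. Written on the strand of its gene, the SRXN1 match is followed directly by GC. The resulting TGAGTCAGC was not among the letters searched for.

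TXNRD1 at chr12:104609458-104609466, core, first base at -99: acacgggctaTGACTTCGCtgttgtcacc
SRXN1 at chr20:634110-634116, AP-1 letters, first base at -272: aaactcacccTGAGTCAgcccgcccgg

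**Figure D1:**
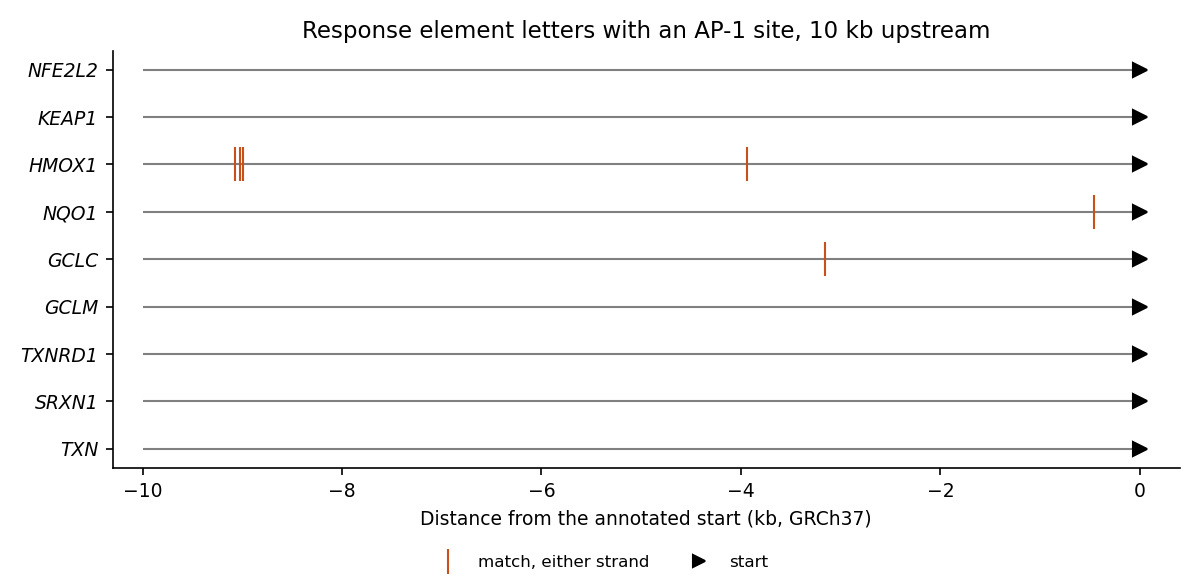
Position of each match to TGACTCAGC, on either strand, in the 10000 bases before the annotated start of the 9 genes, in kb. HMOX1 has 3 matches close together between -9077 and -8990 and 1 at -3940, NQO1 has 1 at -455, GCLC has 1 at -3156, and the other genes have none in this window.

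Because FPKM is scaled to transcript length, levels of different genes can be set side by side. At WT 0 h, TXN was the most abundant at 644.7 ± 48.8 FPKM (SD, n = 2). NQO1 followed at 195.6 ± 1.03 FPKM, TXNRD1 at 88.5 ± 3.67 FPKM and SRXN1 at 53.1 ± 2.60 FPKM (SD, n = 2). The regulators NFE2L2, at 48.5 ± 1.43 FPKM, and KEAP1, at 43.8 ± 2.62 FPKM, were close to each other. GCLM, the modifier subunit of glutamate-cysteine ligase, was at 35.2 ± 1.37 FPKM (SD, n = 2), above the catalytic subunit GCLC at 12.3 ± 0.315 FPKM. HMOX1 was lowest at 11.8 ± 0.450 FPKM (SD, n = 2), and its libraries overlapped with those of GCLC. All other neighbours in this order had libraries that did not overlap.

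**Figure D2:**
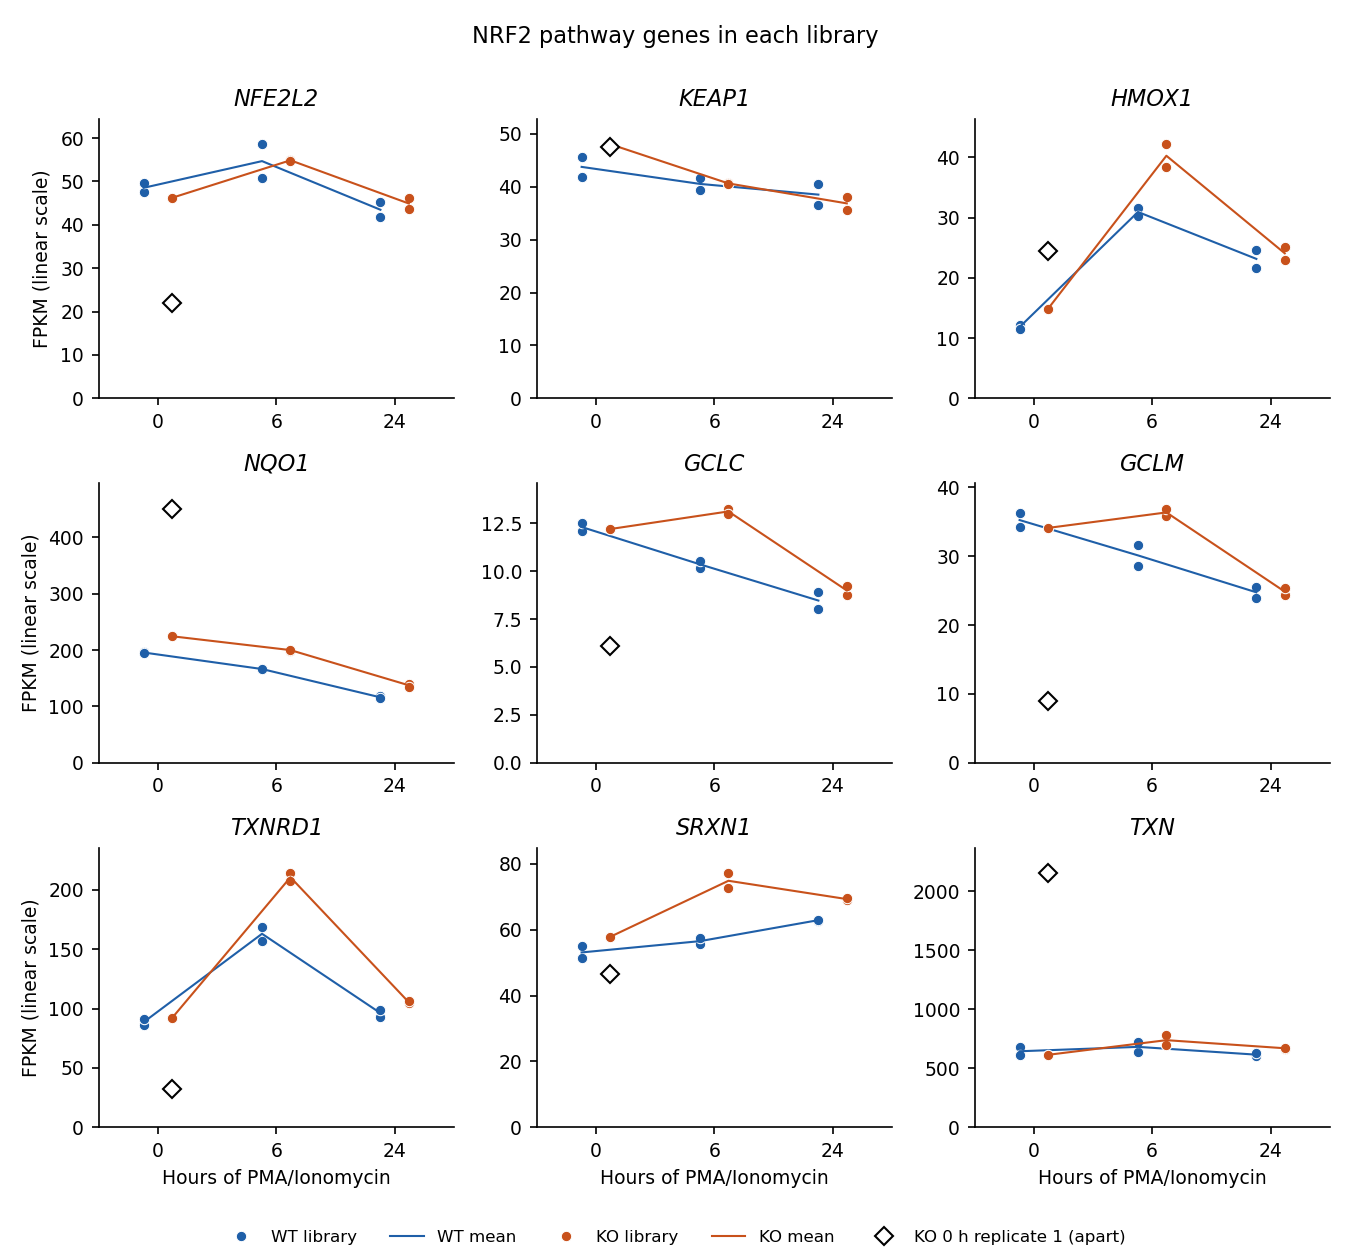
FPKM on a linear scale of the 9 genes in each of the 12 libraries at 0, 6 and 24 h of PMA/Ionomycin, with WT in blue, KO in orange and lines through the group means. HMOX1 and TXNRD1 peak at 6 h, NQO1, GCLC and GCLM end lower than they started, and the open diamond, KO 0 h replicate 1, lies far from the other libraries for NQO1 (450 FPKM) and TXN (2152 FPKM).

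In WT cells, stimulation moved the pathway in both directions. At 6 h HMOX1 and TXNRD1 rose (2 of 9 genes), while NQO1, GCLC and GCLM fell (3 of 9). Across all tested features 23.3% rose and 21.1% fell, so these counts lie near the background. At 24 h against 0 h, HMOX1 and SRXN1 rose (2 of 9, against 26.5% of all features) and NQO1, GCLC and GCLM were still lower (3 of 9, against 28.2%). Between 6 and 24 h, HMOX1, TXNRD1, NQO1, GCLC, GCLM and NFE2L2 fell (6 of 9), against 26.3% of all features, and none rose, against 20.5%. Rescaling FPKM values to a common sum (TPM) instead gave 1 that rose and 3 that fell, and quantile scaling 1 and 4, where the 1 that rose was SRXN1. Of all 11256 features TPM called 4988, 64.3% of them higher, and quantile scaling called 5282, 50.2% of them higher. On the FPKM scale 5267 were called, 43.7% of them higher. The median log2 fold change of the 9 genes was 0.08 at 6 h and -0.16 at 24 h, against 0.00 and -0.02 over all tested features. Log2 fold changes are on the log2(FPKM + 1) scale, from limma's moderated test with 5 residual degrees of freedom, and adjusted p-values use the Benjamini-Hochberg method over all tested features. They measure the spread between these samples only, and in RNA from whole cultures fewer cells with a transcript and less transcript per cell cannot be told apart.

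In KO cells HMOX1, TXNRD1 and SRXN1 rose at 6 h (3 of 9, against 16.8% of all features) and none of the 9 fell, against 13.0%. Under TPM and under quantile scaling KEAP1 and NQO1 fell as well (2 of 9), and without a filter on low values NQO1 did (1 of 9). Of all 11256 features TPM called 3779, 31.8% of them higher, and quantile scaling called 3338, 49.7% of them higher. The share of all features called without a filter is not given here. At 24 h against 0 h, HMOX1 and SRXN1 rose (2 of 9, against 20.6%) and NQO1, GCLM, GCLC and KEAP1 fell (4 of 9, against 21.0%). Between 6 and 24 h, HMOX1, TXNRD1, NQO1, GCLC, GCLM and NFE2L2 fell in KO cells too (6 of 9), against 27.5% of all features, and none rose, against 22.1%. The KO 0 h value behind the first 2 of these comparisons is 1 library. WT and KO contrasts use separate libraries but share 1 estimate of the spread. With KO 0 h replicate 1 in the model, 7 of the 38 calls made here and in the KO against WT comparisons were kept, among them HMOX1 at WT 6 h, WT 24 h and KO 6 h. Under TPM the median of all features shifted by -0.12 for WT 6 h and by -0.13 for KO 6 h against 0 h. The share of calls that were higher then went from 52.5% to 35.0% in WT and from 56.4% to 31.8% in KO cells. For 24 h against 6 h that share went from 43.7% to 64.3% in WT and from 44.6% to 60.7% in KO cells.

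**Figure D3:**
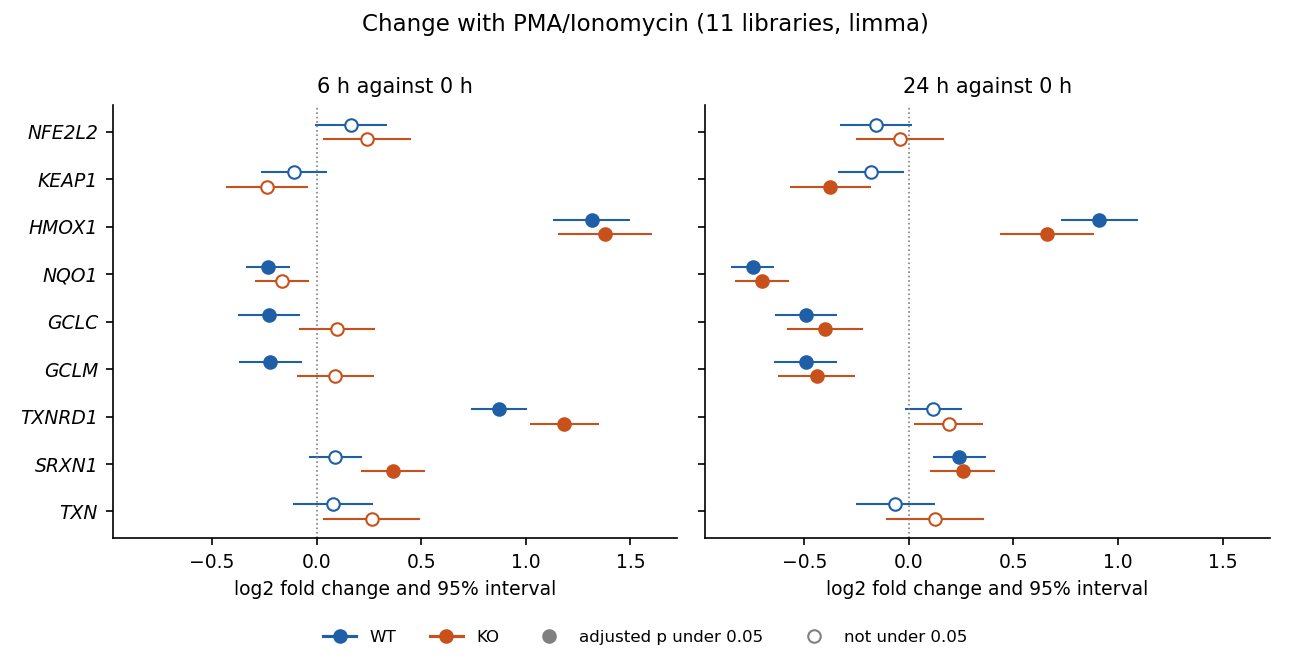
Log2 fold change with its 95% interval for each of the 9 genes at 6 h and 24 h against 0 h, in WT (blue) and KO (orange) cells, with filled points where the adjusted p is under 0.05. HMOX1 is right of 0 in all 4 comparisons and TXNRD1 has its 2 filled points at 6 h, whereas NQO1, GCLC and GCLM are left of 0 at 24 h in both kinds of cells.

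The RNA of the regulators changed little. NFE2L2 (chr2:178095031-178129859) was at 47.5 and 49.5 FPKM at WT 0 h, 50.8 and 58.6 FPKM at 6 h, and 41.8 and 45.2 FPKM at 24 h. The KO libraries were at 46.2 FPKM at 0 h, 54.9 and 54.8 FPKM at 6 h, and 43.7 and 46.1 FPKM at 24 h. It was highest at 6 h in both kinds of cells. The step from 0 to 6 h did not pass the test, with log2 fold changes of 0.17 ± 0.075 (SE, adjusted p = 0.105) in WT and 0.24 ± 0.092 (SE, adjusted p = 0.0794) in KO cells. With a block for the replicate number in limma's model the step was called in both (adjusted p = 0.0305 in WT and 0.0125 in KO cells). Without WT 6 h replicate 1 the WT value was 0.27. From 6 to 24 h NFE2L2 fell by 0.32 ± 0.075 on the log2 scale in WT cells (adjusted p = 0.00808) and by 0.28 ± 0.075 in KO cells (adjusted p = 0.0134). Both falls lost their call after rescaling to TPM (adjusted p = 0.0901 and 0.117) and after quantile normalization (0.0739 and 0.155). The WT fall was also lost without WT 6 h replicate 2 (0.055) or WT 24 h replicate 1 (0.0608), and the KO fall without KO 6 h replicate 1 (0.0544), KO 6 h replicate 2 (0.0552) or KO 24 h replicate 1 (0.0771). Over the fits that left out 1 library the adjusted p ranged from 0.00536 to 0.0608 in WT and from 0.00754 to 0.0771 in KO cells.

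KEAP1 (chr19:10596796-10614054), the inhibitor, had its highest group mean at 0 h in both kinds of cells. It was at 45.6 and 41.9 FPKM at WT 0 h, 41.6 and 39.4 FPKM at 6 h, and 40.4 and 36.6 FPKM at 24 h. Levels in KO cells went from 48.1 FPKM to 40.6 and 40.6 FPKM and then to 38.1 and 35.6 FPKM. The decrease from 0 to 24 h passed the test in KO cells, where the log2 value fell by 0.37 ± 0.085 (SE, adjusted p = 0.0081), and the WT value of -0.18 ± 0.069 did not (adjusted p = 0.055). The difference between these 2 changes, -0.19 with a 95% interval from -0.45 to 0.06, did not pass the test (adjusted p = 0.655). Under TPM and quantile scaling the WT 24 h value was called as well (adjusted p = 0.0263 and 0.0285), as were lower values at WT 6 h (0.0127 and 0.0259, against 0.242 on the FPKM scale) and KO 6 h (0.00499 and 0.0164, against 0.0677). The KO 24 h call was lost in a fit of those libraries alone (0.0509). Over the 11 libraries the highest level of KEAP1 was 1.35 times the lowest, and that of NFE2L2 was 1.40 times the lowest.

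HMOX1 (chr22:35777060-35790207), which encodes the inducible heme oxygenase, had the widest range of the 9 genes, its highest level being 3.66 times its lowest. In WT cells it was at 12.2 and 11.5 FPKM at 0 h, 31.7 and 30.2 FPKM at 6 h, and 24.6 and 21.7 FPKM at 24 h. Its level in KO cells was 14.9 FPKM at 0 h, 42.2 and 38.3 FPKM at 6 h, and 25.1 and 23.0 FPKM at 24 h. Every stimulated library lay above every 0 h library, and the 6 h libraries above the 24 h libraries of the same cells. The log2 fold change at 6 h was 1.31 ± 0.080 (SE, adjusted p = 5.72e-06) in WT and 1.38 ± 0.098 (SE, adjusted p = 2.25e-05) in KO cells. At 24 h it was 0.91 ± 0.080 in WT (adjusted p = 3.81e-05) and 0.66 ± 0.098 in KO cells (adjusted p = 0.00104). From 6 to 24 h it fell by 0.41 in WT and by 0.72 in KO cells on the log2 scale (adjusted p = 0.00374 and 0.000181). All 6 of these calls remained in every fit that left out 1 library, except that KO values against 0 h cannot be had without the 1 KO 0 h library.

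NQO1 (chr16:69743304-69760533), the quinone reductase, had its highest libraries at 0 h and its lowest at 24 h in both kinds of cells. Its level was 196 and 195 FPKM at WT 0 h, 167 and 166 FPKM at 6 h, and 118 and 114 FPKM at 24 h. KO libraries held 224 FPKM at 0 h, 199 and 201 FPKM at 6 h, and 140 and 135 FPKM at 24 h. Within each kind of cells the 3 times did not overlap, and the level at 24 h was 59.4% of that at 0 h in WT and 61.3% in KO cells. In WT cells the log2 value fell by 0.23 ± 0.046 at 6 h (SE, adjusted p = 0.00376) and by 0.75 ± 0.046 at 24 h (adjusted p = 5.09e-06). In KO cells the 24 h value fell by 0.70 ± 0.056 (SE, adjusted p = 3.52e-05), and the 6 h value, -0.17 ± 0.056, was not called (adjusted p = 0.0553). The KO 6 h value was called under TPM, quantile scaling and no filter on low values (adjusted p = 0.00366, 0.00283 and 0.0311). From 6 to 24 h NQO1 fell by 0.51 in WT and by 0.54 in KO cells on the log2 scale (adjusted p = 6.87e-05 and 4.73e-05).

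GCLC (chr6:53362140-53409927) and GCLM (chr1:94352590-94375012), the subunits of glutamate-cysteine ligase, moved together. In WT cells GCLC was at 12.1 and 12.5 FPKM at 0 h, 10.2 and 10.5 FPKM at 6 h, and 8.03 and 8.89 FPKM at 24 h. The KO libraries held 12.2 FPKM at 0 h, 13.3 and 12.96 FPKM at 6 h, and 8.73 and 9.25 FPKM at 24 h. GCLC thus stepped down at each time in WT cells, whereas in KO cells the 6 h libraries lay above the 0 h library. GCLM was at 34.3 and 36.2 FPKM at WT 0 h, 28.6 and 31.6 FPKM at 6 h, and 25.5 and 24.0 FPKM at 24 h. GCLM in KO cells was at 34.1 FPKM at 0 h, 35.8 and 36.9 FPKM at 6 h, and 24.3 and 25.4 FPKM at 24 h. The ratio of GCLM to GCLC levels stayed between 2.70 and 3.18 in the 11 libraries, and Pearson's r of the 2 genes over them was 0.964, which is a description over libraries that share groups.

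At WT 6 h GCLC fell by 0.23 ± 0.065 on the log2 scale (SE, adjusted p = 0.0208) and GCLM by 0.22 ± 0.065 (SE, adjusted p = 0.0242). In a limma fit of those libraries alone neither GCLC nor GCLM was called (adjusted p = 0.0657 and 0.0746). At 24 h both fell by 0.49 in WT cells (adjusted p = 0.000339 and 0.000343), and in KO cells GCLC fell by 0.40 and GCLM by 0.44 (adjusted p = 0.00434 and 0.0028). From 6 to 24 h in KO cells GCLC fell by 0.50 and GCLM by 0.53 (adjusted p = 0.000409 and 0.000299), and in WT cells they fell by 0.26 and 0.27 (adjusted p = 0.0107 and 0.0095). That WT call of GCLM was lost under quantile scaling (adjusted p = 0.0614). For KO 24 h against 0 h, where the 0 h side is 1 library, a fit of those libraries alone kept the GCLM call but lost that of GCLC. Their KO values at 6 h against 0 h, 0.10 and 0.09, were not called (adjusted p = 0.399 and 0.441), and under TPM they were -0.04 and -0.05. The WT 6 h call of GCLC was lost without WT 0 h replicate 2 (adjusted p = 0.0933), WT 6 h replicate 1 (0.112) or WT 6 h replicate 2 (0.058), in a range from 0.0212 to 0.112, and that of GCLM without WT 0 h replicate 2 (0.118) or WT 6 h replicate 1 (0.158), in a range from 0.0216 to 0.158. The WT calls between 6 and 24 h were lost without WT 6 h replicate 2 (0.0683 for GCLC and 0.0713 for GCLM), for GCLC without WT 24 h replicate 1 (0.0843), for GCLM without WT 24 h replicate 2 (0.0647), and under TPM (0.149 and 0.139).

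TXNRD1 (chr12:104609557-104744085), thioredoxin reductase, rose at 6 h and was lower at 24 h than at 6 h. In WT cells it was at 85.9 and 91.1 FPKM at 0 h, 157 and 169 FPKM at 6 h, and 93.3 and 99.03 FPKM at 24 h. KO cells held 92.0 FPKM at 0 h, 214 and 207 FPKM at 6 h, and 104 and 106 FPKM at 24 h. The 6 h libraries lay far above all others of the same cells. The log2 fold change at 6 h was 0.87 ± 0.059 (SE, adjusted p = 1.02e-05) in WT and 1.18 ± 0.072 (SE, adjusted p = 8.67e-06) in KO cells. By 24 h the values against 0 h were 0.12 in WT (95% interval from -0.02 to 0.25, adjusted p = 0.122) and 0.19 in KO cells (95% interval from 0.03 to 0.36, adjusted p = 0.0626), the latter called under quantile scaling (0.0478). The TXNRD1 feature spans EID3 and the pseudogene RPL18AP3 on the same strand, and how fragments there were assigned is not given in the sources used here.

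SRXN1 (chr20:627268-634014), sulfiredoxin, was higher than at 0 h at 24 h in WT cells and at both 6 and 24 h in KO cells. It was at 54.9 and 51.2 FPKM at WT 0 h, 55.5 and 57.5 FPKM at 6 h, and 62.7 and 63.0 FPKM at 24 h. Its KO libraries were at 57.8 FPKM at 0 h, 77.1 and 72.5 FPKM at 6 h, and 68.9 and 69.6 FPKM at 24 h. The 24 h libraries were the highest in WT and the 6 h libraries the highest in KO cells. The log2 fold change in WT cells was 0.09 ± 0.055 at 6 h (SE, adjusted p = 0.22) and 0.24 ± 0.055 at 24 h (SE, adjusted p = 0.00609). Between 6 and 24 h it was 0.15 in WT cells (adjusted p = 0.0504), which TPM, quantile scaling, no filter on low values and a fit of those libraries alone called higher (0.00221, 0.00307, 0.0447 and 0.0406). In KO cells it was 0.37 ± 0.067 at 6 h (SE, adjusted p = 0.0044) and 0.26 ± 0.067 at 24 h (SE, adjusted p = 0.0156), the latter reaching 0.05 without KO 24 h replicate 2 in a range from 0.0125 to 0.05. Both KO calls were lost in fits of the 2 groups alone (0.0618 at 6 h and 0.0831 at 24 h). SRXN1 shares sequence with a readthrough gene, ENSG00000270299, on its strand.

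TXN (chr9:113006092-113018920), thioredoxin, was not called in any comparison. It was at 679 and 610 FPKM at WT 0 h, 640 and 724 FPKM at 6 h, and 605 and 626 FPKM at 24 h. The corresponding KO levels were 614 FPKM at 0 h, 780 and 697 FPKM at 6 h, and 664 and 676 FPKM at 24 h. Its WT libraries overlapped between 0 h and either later time, and over the 11 libraries the highest level was 1.29 times the lowest. Its largest value was KO 6 h against 0 h, 0.26 with a 95% interval from 0.03 to 0.50 (adjusted p = 0.0862). The annotation names 7 TXN pseudogenes, with which its fragments may have been shared.

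At 6 h of stimulation 6 of the 9 genes were higher in KO than in WT cells, against 3.62% of all tested features. None was lower, against 6.22%. The count of 6 fell to 1 without WT 6 h replicate 1, to 2 without WT 6 h replicate 2 or KO 6 h replicate 2 and to 3 without KO 6 h replicate 1, and it was 3 in a fit of the 6 h libraries alone and 4 under TPM. The 6 genes were SRXN1, HMOX1, TXNRD1, GCLC, GCLM and NQO1, between 120.2% and 132.4% of the WT mean on the FPKM scale, and in each both KO libraries lay above both WT libraries. NFE2L2, KEAP1 and TXN overlapped between KO and WT cells. The share of all features whose KO and WT libraries did not overlap is not given here, so this order has no background. The median log2 difference of the 9 genes was 0.27, against 0.01 over all features, of which 5% lay above 0.30. At 0 h none of the 9 was called, against 1.69% of all features in either direction, and 2 of them, HMOX1 and NQO1, had an unadjusted p under 0.05 in limma's test. At 24 h NQO1 alone was called higher in KO cells, against 2.35% of all features, and none was called lower, against 3.97%. At that time 2 of the 9, NQO1 and SRXN1, had an unadjusted p under 0.05 in limma's test. The KO and WT libraries of these 3 comparisons also enter the time courses above, so the 2 sets of results are not independent. With KO 0 h replicate 1 in the model, none of the 9 was called at any of the 3 times (2, 1 and 0 at an unadjusted p under 0.05 in limma's test). The share of all features at an unadjusted p under 0.05 is not given here, so the counts at that threshold have no background.

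**Figure D4:**
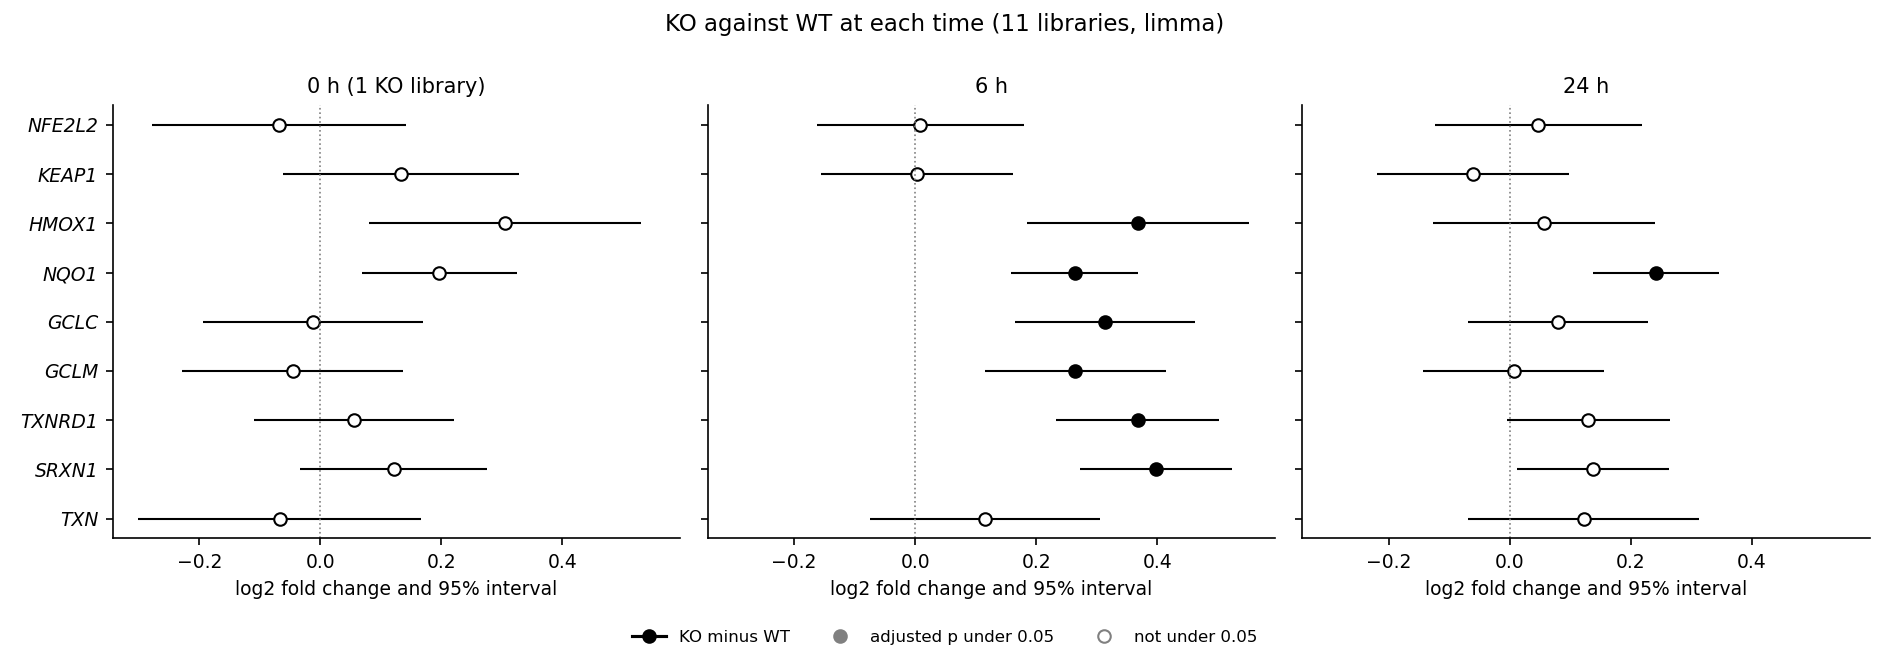
Log2 fold change of KO against WT cells with its 95% interval for the 9 genes at 0, 6 and 24 h, with filled points where the adjusted p is under 0.05. The 6 filled points at 6 h lie between 0.26 and 0.40, while NFE2L2 and KEAP1 sit at 0.01 and 0.00, and NQO1 has the only filled point at 24 h.

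SRXN1 showed the largest difference at 6 h. Its log2 value was 0.40 ± 0.055 (SE, adjusted p = 0.00382), 132.4% of the WT mean on the FPKM scale, and it was called in all 11 fits that left out 1 library (adjusted p from 0.00381 to 0.0417). TXNRD1 differed by 0.37 ± 0.059 (SE, adjusted p = 0.0071), and its call was lost without WT 6 h replicate 1 (adjusted p = 0.0667, the highest of a range from 0.00709). TXN, the substrate of TXNRD1, differed by 0.12 with a 95% interval from -0.08 to 0.31 (adjusted p = 0.453). The thioredoxin arm of the pathway thus held 2 called genes of 3, against 3.62% of all features called higher. Of the 2, only SRXN1 kept its call in every fit that left out 1 library.

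HMOX1 differed by 0.37 ± 0.080 at 6 h (SE, adjusted p = 0.0244) and NQO1 by 0.26 ± 0.046 (SE, adjusted p = 0.00981). The HMOX1 call was lost without each of the 6 h libraries in turn (adjusted p = 0.105 without WT 6 h replicate 1, 0.14 without WT 6 h replicate 2, 0.117 without KO 6 h replicate 1 and 0.0605 without KO 6 h replicate 2, in a range from 0.0241) and in a fit of the 6 h libraries alone (0.0644). That of NQO1 was lost without WT 6 h replicate 1 (0.0675), WT 6 h replicate 2 (0.0645) or KO 6 h replicate 2 (0.0608), in a range from 0.00968. At 0 h, before stimulation, the 1 KO library lay above both WT libraries for both genes, with log2 values of 0.31 and 0.20, neither called. The KO library also lay above both WT libraries for KEAP1, TXNRD1 and SRXN1, and below both for NFE2L2 and GCLM. The share of all features in such an order is not given here, so it has no background. At 24 h the HMOX1 value was 0.06 (95% interval from -0.13 to 0.24, adjusted p = 0.744), with overlapping libraries. NQO1 was still higher in KO cells by 0.24 ± 0.046 (SE, adjusted p = 0.0198), a call that was lost without WT 24 h replicate 1 (0.0952), WT 24 h replicate 2 (0.128), KO 24 h replicate 1 (0.108) or KO 24 h replicate 2 (0.0754), in a range from 0.0194, and in a fit of the 24 h libraries alone (0.102).

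For the glutathione pair the difference at 6 h was 0.31 ± 0.065 for GCLC (SE, adjusted p = 0.0201) and 0.27 ± 0.065 for GCLM (SE, adjusted p = 0.0396). Both were near 0 at 0 h, with values of -0.01 (95% interval from -0.19 to 0.17) and -0.05 (95% interval from -0.23 to 0.14), and at 24 h with values of 0.08 (95% interval from -0.07 to 0.23) and 0.01 (95% interval from -0.14 to 0.16). The GCLC call was lost without WT 6 h replicate 1 (adjusted p = 0.138), WT 6 h replicate 2 (0.0843), KO 6 h replicate 1 (0.0854) or KO 6 h replicate 2 (0.0847), in a range from 0.0203, under TPM (0.0545) and in a fit of the 6 h libraries alone (0.0809). The GCLM call was the least stable of the 6, lost in 8 of 11 fits that left out 1 library, including those without WT 6 h replicate 1 (0.235), WT 6 h replicate 2 (0.0577), KO 6 h replicate 1 (0.096), KO 6 h replicate 2 (0.177) and any 24 h library (0.0594 to 0.0597). It was also lost under TPM (0.0882), quantile scaling (0.0624), no filter on low values (0.0537), no trend of the variance with level (0.0531) and in a fit of the 6 h libraries alone (0.113). In these fits the direction was kept for both genes. The regulators differed by 0.01 (NFE2L2, 95% interval from -0.16 to 0.18) and 0.00 (KEAP1, 95% interval from -0.16 to 0.16) at 6 h.

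Whether the response to stimulation itself differed between KO and WT cells was tested as the difference of the 2 changes. None of the 9 genes was called for 6 h against 0 h, for 24 h against 0 h or for 24 h against 6 h in limma's test, where 0.267%, 0.275% and 0.16% of all features were. At an unadjusted p under 0.05 there were 4, 0 and 5 of the 9. The shares just given are at an adjusted p and are no background for these counts. For 6 h against 0 h these were GCLC at 0.33 (95% interval from 0.09 to 0.56), TXNRD1 at 0.31 (95% interval from 0.10 to 0.53), GCLM at 0.31 (95% interval from 0.07 to 0.55) and SRXN1 at 0.28 (95% interval from 0.08 to 0.48). Their adjusted p-values lay between 0.395 and 0.459, so a stronger response in KO cells was not shown for any single gene. HMOX1, with 0.06 (95% interval from -0.23 to 0.35), and NQO1, with 0.07 (95% interval from -0.10 to 0.23), had smaller values. From 6 to 24 h the difference was -0.31 for HMOX1, -0.26 for SRXN1, -0.26 for GCLM, -0.24 for TXNRD1 and -0.24 for GCLC, with adjusted p-values from 0.488 to 0.676. The 0 h side of the first 2 contrasts holds 1 KO library, which widens their intervals.

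Among the partners and regulators of NRF2, 16 of 18 genes were tested and BACH2 and NFE2 were too low. At WT 6 h 7 rose and 1 fell, against 23.3% and 21.1% of all features. SQSTM1, which encodes p62, an autophagy receptor that binds KEAP1, rose by a log2 value of 1.89 (adjusted p = 1.28e-07). Its level went from 144.5 and 142 FPKM to 549 and 519 FPKM. The small MAF genes MAFF, MAFG and MAFK, whose products pair with NRF2, rose by 1.47, 0.98 and 0.96 (adjusted p = 3.43e-07, 7.47e-06 and 0.000102), and the coactivator gene CREBBP fell by 0.31 (adjusted p = 0.00538). At 24 h 8 rose and 3 fell, against 26.5% and 28.2%, with CUL3, which joins KEAP1 in the ubiquitin ligase, falling by 0.34 (adjusted p = 0.0113). The counts in KO cells were 7 and 1 at 6 h (against 16.8% and 13.0%), where MAFK rose by 1.09 (adjusted p = 0.000268), and 8 and 2 at 24 h (against 20.6% and 21.0%). Between KO and WT cells none was called at 0 h or at 24 h. At an unadjusted p under 0.05 in limma's test there were 3 at each of these times. The share of all features at that threshold is not given here. At 6 h SQSTM1 alone was called, higher by 0.25 (adjusted p = 0.0407), against 3.62% of all features.

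The list of other NRF2 targets held 35 genes, of which 30 were tested, leaving out ABCC2, AKR1B10, AKR1C2, GPX2 and ALDH3A1. At WT 6 h 7 rose and 7 fell, counts near the 23.3% and 21.1% of all features. At WT 24 h 10 rose and 4 fell, against 26.5% and 28.2%. Between 6 and 24 h in WT cells 14 rose and 3 fell, against 20.5% and 26.3%, unlike the 9 genes, of which none rose. In KO cells 8 rose and 7 fell between these times, against 22.1% and 27.5%. AKR1C1, an aldo-keto reductase, rose by 2.15 at WT 24 h (adjusted p = 1.4e-06) and by 1.81 at KO 24 h (adjusted p = 1.73e-05), in the same cells in which NQO1 fell. UGDH rose by 0.64 and AKR1B1 by 0.61 at WT 6 h (adjusted p = 0.000646 and 0.000147). IDH1, the cytosolic isocitrate dehydrogenase, fell by 1.05 at WT 6 h (adjusted p = 3.05e-05) and rose by 1.203 between 6 and 24 h (adjusted p = 2.28e-05). AKR1C genes are close copies of one another, so their fragments may have been divided between them, and PIR, which fell by 0.75 at WT 6 h (adjusted p = 0.000172), shares its feature with FIGF. In both kinds of cells some targets rose while others fell.

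Between KO and WT cells, 3 of these 30 targets were higher at 0 h, where 1.69% of all features were called in either direction. At 6 h 5 were higher, against 3.62%, and at 24 h 2 were higher, against 2.35%. None was lower at any of these times, against 6.22% at 6 h and 3.97% at 24 h. The medians were 0.07, 0.11 and 0.06, against 0.01 over all features at each time. EPHX1, the microsomal epoxide hydrolase, was higher at 0 h by 0.56, at 6 h by 0.60 and at 24 h by 0.40 (adjusted p = 0.00964, 0.000902 and 0.00806). Its level was 19.2 and 19.2 FPKM at WT 0 h against 28.8 FPKM at KO 0 h, and 15.6 and 15.5 FPKM at WT 6 h against 24.3 and 23.8 FPKM at KO 6 h. SLC7A11, the cystine transporter that feeds glutathione synthesis, was at 6.43 and 6.03 FPKM at WT 6 h and at 10.1 and 11.7 FPKM at KO 6 h, a log2 difference of 0.71 (adjusted p = 0.00624). The ferritin genes FTL at 6 h (0.46, adjusted p = 0.0132) and FTH1 at 0 h and 24 h (0.44 and 0.26, adjusted p = 0.0316 and 0.0452) were also higher in KO cells. FTH1 was higher at 6 h too, at 2432 and 2379 FPKM in KO against 1850 and 1825 FPKM in WT cells, a log2 difference of 0.39 (adjusted p = 0.00701).

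The list of antioxidant enzymes outside the classical NRF2 targets held 31 genes, of which all but SESN3 were tested (30). At 6 h 4 were higher and 4 lower in KO than in WT cells, against 3.62% and 6.22% of all features, and whether this list differed from the others was not tested. SOD2, the mitochondrial superoxide dismutase, rose by 2.79 at WT 6 h (adjusted p = 2.6e-09), from 33.1 and 33.5 FPKM to 235 and 238 FPKM. In KO cells it reached 146 and 141 FPKM and was lower than in WT cells by 0.72 at 6 h and by 0.50 at 24 h on the log2 scale (adjusted p = 0.000128 and 0.00125). It was the only gene of the 4 lists whose change from 0 to 6 h differed between KO and WT cells (-0.64, adjusted p = 0.0124). TXNIP, the thioredoxin-binding inhibitor, fell by 1.44 at WT 6 h (adjusted p = 6.06e-05) and was lower in KO than in WT cells at 6 h by 0.72 (adjusted p = 0.0125). TXNRD1 was higher in KO cells at that time, and a link between the 2 genes was not tested. TXNIP was low, with a mean of 8.73 FPKM at WT 0 h and 0.963 FPKM in the lowest of the 11 libraries. The 1 added to FPKM before the log therefore weighs on its values. SESN2, which encodes the stress protein sestrin, rose by 0.997 at WT 6 h and was higher in KO cells by 0.48 (adjusted p = 3.09e-05 and 0.00923). At WT 6 h 4 genes of this list rose and 9 fell (against 23.3% and 21.1% of all features), at WT 24 h 7 and 10 (26.5% and 28.2%), at KO 6 h 4 and 6 (16.8% and 13.0%), and at KO 24 h 5 and 8 (20.6% and 21.0%).

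The 9 genes fell into loose groups by their profile over the 11 libraries, given here as Pearson's r without a test, since libraries of a group are not independent of each other. NQO1 followed GCLC (0.938) and GCLM (0.929), and HMOX1 followed TXNRD1 (0.867). HMOX1 and NQO1 were nearly unrelated (-0.149). NFE2L2 was closest to TXNRD1 (0.817), KEAP1 to NQO1 (0.758) and TXN to TXNRD1 (0.753). The lowest r was that of KEAP1 with SRXN1 (-0.489). Among all tested features, the closest profile to HMOX1 was LEPREL1 (0.994), then ARID3B (0.990) and SYVN1 (0.986). For NQO1 they were CDH4 (0.994), GLB1L2 (0.987) and ABCB10 (0.987), and for TXNRD1 they were NRG1 (0.989), C3orf52 (0.988) and GFPT1 (0.986). GCLC was closest to EEF2K (0.989), NLN (0.973) and MAGOHB (0.970), and GCLM to DUSP12 (0.980), FAM133B (0.971) and ETS2 (0.971). SRXN1 had the weakest matches, CXorf61 (0.947), CSRP2 (0.942) and POLR3A (0.934). NFE2L2, KEAP1 and TXN varied too little over the libraries (a log2 range under 0.5) for this search among all features.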

How the data were processed

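RNA of MDA-MB-231 cells was sequenced as stranded mRNA libraries. The authors aligned reads to hg19 (TopHat 2.0.12) and ran Cufflinks 2.2.1 on the alignments. The deposited table gives FPKM values for 24331 features in 12 columns, all of which were used. The annotation, the strand setting and any scaling between libraries are not given in the sources used here. FPKM keeps no fragment count, so sequencing depth is unknown. Columns were matched to samples by title, and 2 names with a digit in place of the letter for hours (KO 0 h and 6 h, replicate 2) were matched to the label of the same heading and number. Feature starts were shifted to count from 1.

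Log2(FPKM + 1) was fitted with limma 3.58.1 in R 4.3.3 (lmFit, contrasts.fit, eBayes with trend), as 1 model of 6 groups over 11 libraries, for features whose FPKM averaged at least 1, with Benjamini-Hochberg adjustment over 11256 features and calls at an adjusted p under 0.05. The script was tested on simulated data. The 9 genes and the lists were chosen with earlier results of these data known. Named genes are the 9 genes, per list and comparison up to 3 highest and 3 lowest called values whose groups did not overlap, and per gene with a log2 range of at least 0.5 the 3 features of highest r. Of those, the report names a part. The fits were repeated with all 12 libraries, without each library in turn, with another pseudocount (0.1), with no minimum or a minimum of 5 on the mean FPKM, after quantile normalization or rescaling to TPM, per comparison, without the trend, and with a block for the replicate number. Deviations of same-numbered samples correlated weakly, from -0.0676 to 0.202. The block nevertheless raised the calls over all features, from 4993 to 5929 at WT 6 h and from 1107 to 1805 for KO against WT at 6 h. Whether the replicate numbers mark pairs or batches was not tested.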

Additional observations from a re-analysis of the deposited data

Results flagged for a closer look

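The library labelled KO 0 h replicate 1 was in no comparison, and 4 of the 9 genes were higher in it than in both WT 0 h libraries. TXN was at 2152 FPKM and NQO1 at 450 FPKM, above all 11 other libraries, whose highest values were 780.5 and 224 FPKM. HMOX1 was at 24.4 FPKM and KEAP1 at 47.6 FPKM, both within the range of the other 11. When the library was rescaled to the mean FPKM sum of the others, TXN was at 913.5 FPKM, NQO1 at 191 FPKM, HMOX1 at 10.4 FPKM and KEAP1 at 20.2 FPKM, and TXN alone of the 4 remained above the WT 0 h libraries. The remaining 5 genes, NFE2L2 (21.97 FPKM), GCLC (6.11 FPKM), GCLM (8.95 FPKM), TXNRD1 (32.3 FPKM) and SRXN1 (46.6 FPKM), were below all 11 other libraries. The ratio of GCLM to GCLC was 1.46, outside the 2.70 to 3.18 of the others. GPX2, an NRF2 target of the gut epithelium, was at 1958 FPKM in this library and at 0.121 FPKM or less in the other 11. Markers of intestinal epithelium moved with these values (9 of 10 at 1 FPKM or more), and their part in them was not tested.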

How the results depend on the processing

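With 1 or 2 libraries a group and unknown depth, small differences cannot be seen. Of 38 member calls, 38 were kept with a pseudocount of 0.1, 38 with a mean FPKM of at least 5, 37 without a filter, 37 without the trend, 34 under quantile normalization, 32 under TPM, 28 in separate fits and 7 with all 12 libraries, and 22 were kept in every alternative but the last. With all 12 libraries the genes called were 1 at WT 6 h, 1 at WT 24 h and 0 for WT 24 h against 6 h, 2 at KO 24 h and 0 for KO 24 h against 6 h, and 0 for KO against WT at 6 h and at 24 h. Separate fits called 3 at WT 6 h, 3 at KO 24 h, 3 for KO against WT at 6 h and 0 at 24 h. Quantile normalization and TPM each called 5 at KO 6 h. With the replicate number as a block, 6 genes were called at KO 6 h and 2 for KO against WT at 0 h, and all 38 calls remained. The separate fits used fewer libraries and the 12-library fit used an added library, and the cause of these changes was not tested.

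Leaving out 1 library at a time, the calls ranged from 3 to 5 at WT 6 h, from 5 to 6 at WT 24 h, from 3 to 7 for WT 24 h against 6 h, from 3 to 4 at KO 6 h, from 5 to 6 at KO 24 h, from 5 to 6 for KO 24 h against 6 h, from 1 to 6 for KO against WT at 6 h and from 0 to 1 at 24 h, and were 0 at 0 h and for the differences of changes. Over all features, calls for KO against WT at 0, 6 and 24 h numbered 190, 1107 and 712, against 43, 364 and 132 in separate fits, 655, 1805 and 1407 with the block, and 17, 20 and 17 with 12 libraries. With 12 libraries the time course calls went from 4993, 6151 and 5267 to 857, 1221 and 582 in WT and from 3359, 4674 and 5586 to 1011, 1302 and 845 in KO cells, and separate fits gave 1320 at KO 6 h. The differences of changes went from 30, 31 and 18 to 4, 4 and 0 with 12 libraries and to 72 and 75 for the first 2 with the block, and 24 h against 6 h gave 9 in separate fits and 8 without the trend. TPM moved the share of higher calls for KO against WT at 24 h from 37.2% to 24.7%.

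Values that changed sign with all 12 libraries were KO 24 h against 0 h for NFE2L2 (0.48), GCLC (0.0442), GCLM (0.47) and TXN (-0.78), KO 6 h against 0 h for TXN (-0.64), KO against WT at 0 h for TXNRD1 (-0.69), SRXN1 (-0.0313) and TXN (0.84), and the differences of changes for HMOX1 (-0.28 at 6 h), NQO1 (-0.43 at 6 h and -0.46 at 24 h) and TXN (-0.72 at 6 h and -0.71 at 24 h). Of these, the GCLC and GCLM values at KO 24 h were calls. Quantile normalization turned KEAP1 (0.0147) and TXN (0.0391) for WT 24 h against 6 h, GCLM at KO 6 h (-0.0038), SRXN1 at WT 6 h (-0.0027), SRXN1 for KO 24 h against 6 h (0.0524), TXN at WT 24 h (0.0925) and TXN for KO against WT at 0 h (0.0424). TPM turned KEAP1 for WT 24 h against 6 h (0.0425), GCLC (-0.0356) and GCLM (-0.0492) at KO 6 h, and SRXN1 (-0.0315) and TXN (-0.0423) at WT 6 h. Leaving out 1 library at a time, values that crossed 0 ranged from -0.0931 to 0.11 for NFE2L2 in KO against WT at 6 h, from -0.131 to 0.0092 for KEAP1 and from -0.0309 to 0.1419 for HMOX1 in KO against WT at 24 h, and from -0.0083 to 0.1687 for TXN at WT 6 h. None of these but the 2 named was a call, and the cause was not tested.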
